A study of Homo sapiens with 21 samples.

Results

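The comparison described here sets 8 libraries of EWS/FLI knockdown cells that received a rescue construct of wild-type EWS/FLI or of mut9 against 9 libraries of the same knockdown cells that received an empty vector or the delta 22 construct. The 17 libraries were chosen by construct label from 21 in all. RNA-seq was done on A673, a Ewing sarcoma cell line that carries the EWS/FLI fusion. All 17 carried the EF-2 RNAi against EWS/FLI and, after selection for 4 days, an infection with a pMSCV-hygro vector. The rescued side holds wild-type type IV EWS/FLI (replicates 1 to 5) and mut9 (replicates 3 to 5). The unrescued side holds the empty vector (replicates 1 to 5) and delta 22 (replicates 1 to 4). The remaining 4 libraries, which carried a control RNAi against luciferase, served for levels only. What mut9 and delta 22 change in the protein is not described in the labels used here. The replicate number is the labelled batch: batches 1 and 2 hold no mut9, batch 5 holds no delta 22, and batches 3 and 4 hold all 4 constructs. Nothing in the labels says that libraries came from separate cultures, so p-values measure the spread between these libraries, which may be technical.

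EWS/FLI joins the low-complexity N-terminal part of the RNA-binding protein EWSR1 to the DNA-binding ETS domain of FLI1. The fusion binds GGAA motifs: at microsatellites of repeated GGAA it acts mostly as an activator, and at single ETS sites it can displace or join other ETS factors. In Ewing sarcoma cells it is known to switch on a set of genes such as NKX2-2 and NR0B1 and to hold down matrix, adhesion and other mesenchymal genes, which return when the fusion is depleted.

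Values are the authors' normalized log2 values, so a difference of 1 is a 2-fold difference, and the library totals behind them are not kept. A gene was tested when 3 or more of the 21 libraries reached 10 on the linear scale. This left 18040 of 57820 genes. Each library reached that level in 16708 to 17326 genes. Side differences are from limma with the batch as a block. P-values were adjusted by Benjamini-Hochberg over the 18040 genes, and a gene was called when its adjusted p was below 0.05. Since these are bulk cultures, fewer cells expressing a gene and less RNA per cell cannot be told apart.

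FLI1, the 3′ part of the fusion, did not separate the sides. Its level was 10.69, 10.46, 10.35, 10.46 and 10.42 in the wild-type libraries, 10.39, 10.20 and 10.10 with mut9, 9.67, 9.84, 9.99, 9.59 and 9.76 with the empty vector, and 11.51, 11.22, 10.99 and 11.38 with delta 22. The empty vector was thus lowest and delta 22 highest, with both rescues between them and no overlap of either with the rescued libraries. The pooled difference was 0.02 ± 0.30 (exact permutation within batches, 2-sided p = 0.953, 972 arrangements, smallest p 0.00206). Within the unrescued side, FLI1 was 1.49 ± 0.11 log2 higher with delta 22 than with the empty vector (limma adjusted p = 1.20e-04). The sides were thus not ordered by FLI1 RNA. EWSR1, which includes the untouched normal gene, was 0.21 ± 0.06 higher on the rescued side (exact permutation p = 0.0123, adjusted over 2 genes 0.0246), with the ranges of the sides overlapping. Quantile scaling of the libraries gave 0.385 with no overlap, and trimmed mean scaling 0.317 with overlap.

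The names rescued and unrescued were checked on genes known to follow the fusion. The mean level of 33 known activated targets was 11.03 to 11.55 over the wild-type libraries and 10.98 to 11.28 over mut9. It was 8.61 to 9.38 with the empty vector, 8.44 to 8.94 with delta 22 and 11.49 to 11.55 in control RNAi. Both rescues were thus close to the control cells and both other constructs far below. The 25 known repressed targets averaged 10.18 to 11.05 with wild type, 11.21 to 11.39 with mut9, 13.26 to 13.50 with the empty vector and 13.14 to 13.57 with delta 22. Control RNAi stood at 8.49 to 8.98, so on this list neither rescue reached the control level and mut9 stayed above every wild-type library. These lists come in part from work in A673 and are not independent evidence of direction.

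Between the sides, 11442 of 18040 genes were called (63.4%), 5553 higher on the rescued side (30.8%) and 5889 lower (32.6%). Of these, 3278 differed at least 2-fold (18.2%): 1177 were higher (6.52%) and 2101 lower (11.6%). For 4580 genes (25.4%) all 8 rescued libraries lay on one side of all 9 unrescued ones, above them in 2071 (11.5%) and below them in 2509 (13.9%). In the plot of called genes by size of difference, the fullest class was 0.5 to 1 on the log2 scale, with 3289 genes. There were 2068 called genes under 0.3 and 2807 from 0.3 to 0.5. Full separation of the sides was seen in 143 of the former and 670 of the latter, against 81 of the 90 called genes at 4 or more. The side accounted for 65.7% of the summed squares over tested genes, the batch for 13.7%, the construct within a side for 9.42% and the residual for 11.2%. The batch was entered first, and genes with large differences weigh most in this sum. Medians over tested genes were 41.3% for the side, 16.3% for the batch, 10.2% for the construct and 18.1% for the residual.

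**Figure D1:**
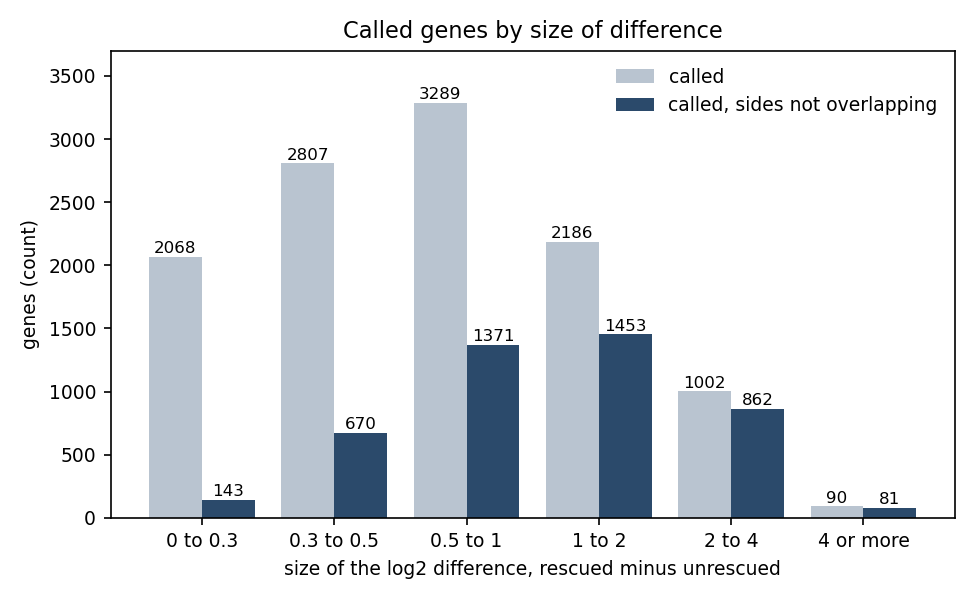
Called genes (count, linear axis from 0) by size of the log2 difference between the rescued and unrescued side; pale bars are all called genes and dark bars those whose 8 rescued and 9 unrescued libraries do not overlap. Of 2068 called genes under 0.3, 143 were fully separated, and of 90 genes at 4 or more, 81 were.

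Rises and falls are given for the genes of largest difference with a mean of at least 100 on the linear scale and sides that did not overlap. Among the rises, APELA, which encodes a secreted peptide ligand of the apelin receptor, was at 9.83 to 11.66 (median 10.96) in rescued and 4.44 to 5.71 (median 4.74) in unrescued libraries. IGF1, the growth factor ligand of the IGF1 receptor, was at 11.24 to 12.16 (median 11.63) against 5.95 to 8.35 (median 6.67). LOXHD1, known for its role in hair cells of the inner ear, was at 9.39 to 10.82 (median 10.02) against 4.61 to 6.14 (median 4.96). At their closest libraries the sides were still 4.12, 2.89 and 3.25 apart. The differences were 5.95 ± 0.22 for APELA (adjusted p = 2.01e-10), 4.79 ± 0.24 for IGF1 (1.75e-09) and 4.81 ± 0.25 for LOXHD1 (2.93e-09). Next in size were CYP4F22, a cytochrome P450 of skin lipid synthesis (5.09 ± 0.25), ISM2 (4.99 ± 0.29), the microtubule-binding MAP7D2 (4.86 ± 0.39) and the receptor GPR174 (4.80 ± 0.22). None of these 7 genes was called between wild type and mut9. Among known activated targets, 30 of 33 rose and 2 fell, with a median of 2.54 against 0.00408 over all genes tested. The ferrireductase gene STEAP2 was 2.51 ± 0.10 higher, the neural homeobox genes ISL1 and NKX2-2 2.11 ± 0.10 and 2.35 ± 0.11, and the potassium channel subunit KCNAB3 2.56 ± 0.13. The 2 that fell were the homeobox gene DLX2 (-0.48) and the mitotic factor FOXM1 (-0.45). AURKA, the remaining one, was at -0.07 and was not called.

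One annotated start of LOXHD1 is printed because its window holds a tandem pair of GGAA, the unit of the fusion's repeat sites. The other 3 windows of LOXHD1 hold no GGAAGGAA, and neither do the windows of APELA, IGF1, CYP4F22, ISM2, MAP7D2 or GPR174. The window runs from 250 bases before to 50 after the start, written 5′ to 3′ on the gene's strand, from RefSeq on GRCh38.p14. Capitals mark GGAAGGAA.
LOXHD1, chr18:46657171-46657470, reverse strand: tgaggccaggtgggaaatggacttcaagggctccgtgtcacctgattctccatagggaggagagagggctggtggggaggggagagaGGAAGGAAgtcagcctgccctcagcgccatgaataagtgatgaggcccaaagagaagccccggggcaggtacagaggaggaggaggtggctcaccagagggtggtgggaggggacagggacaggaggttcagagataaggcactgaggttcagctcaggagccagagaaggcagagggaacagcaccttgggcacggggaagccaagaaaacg

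By the same choice, the falls included secreted and surface proteins. IGFBP1, a carrier that binds insulin-like growth factors, was at 3.09 to 5.12 (median 4.04) in rescued and 8.84 to 9.77 (median 9.59) in unrescued libraries. LIF, a cytokine of the interleukin 6 family, was at 6.96 to 9.92 (median 8.48) against 11.16 to 14.10 (median 13.17). THBS1, the matrix glycoprotein thrombospondin 1, was at 7.76 to 11.23 (median 8.46) against 12.79 to 15.28 (median 14.06). That no rescued library reached an unrescued one in any of these was required by the choice. The rescued libraries themselves spanned 2.03, 2.96 and 3.47 log2 units. The differences were -5.45 ± 0.27 (1.73e-09), -4.94 ± 0.38 (8.46e-08) and -4.89 ± 0.62 (9.10e-06, adjusted p in each case). The proteoglycan ESM1 (-4.85), the urea transporter SLC14A1 (-4.76), the protease inhibitor TFPI2 (-4.66), osteopontin (SPP1, -4.58) and the peptidase ANPEP (-4.58) followed.

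Matrix, adhesion and actin genes fell as groups. Of 32 collagens and matrix proteins, 27 fell and none rose (median -1.52). Sides did not overlap in 17 (53.1%, against 25.4% of all genes). The elastin and collagen cross-linking enzymes LOX and LOXL2 fell by 3.09 and 2.63, fibrillin 2 (FBN2) by 2.22 and the laminin chain LAMC1 by 1.53. The 5 members not called were POSTN, TNC, COL5A2, AGRN and COL3A1. Among integrins and focal adhesion genes, 28 of 30 fell (median -1.12), with 24 not overlapping (80.0%). The collagen receptor subunit ITGA2 was at 7.27 to 8.74 (median 7.73) in rescued and 11.11 to 12.76 (median 12.13) in unrescued libraries. ITGB5 fell by 1.59 and the adhesion scaffold BCAR1 by 1.49. TNS1, a tensin that links integrins to actin, was the exception and rose by 1.29, while TES (-0.02) was not called. Of 30 actin cytoskeleton and SRF/YAP target genes, 29 fell (median -0.84), among them the tropomyosin TPM1 (-2.50), the YAP target ANKRD1 (-3.52), the myosin heavy chain MYH9 (-1.17) and the receptor kinase AXL (-3.60). Known repressed targets fell in 25 of 25 cases (median -2.80).

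Ligands, receptors and inhibitors of 2 growth factor pathways moved in different directions. In the TGF-beta and BMP list, 17 of 24 members fell and 4 rose (median -0.64). The latent TGF-beta binding protein LTBP1 was at 7.84 to 8.31 (median 8.05) against 11.13 to 12.05 (median 11.38), a fall of 3.42. The activin subunit INHBA fell by 3.93, the receptor TGFBR1 by 2.14 and the signal transducer SMAD3 by 1.90. The 4 that rose were the inhibitor SMAD6 (0.66), the repressor SKI (0.42), the receptor BMPR1A (0.53) and ID2 (0.69), while ID1 (-0.33) and ID3 (-0.35) fell, ID1 only as deposited and not under the other scalings. In the insulin-like growth factor axis, the ligand IGF1 rose with the adaptor IRS2 (1.97) and the insulin receptor INSR (1.10). The 8 that fell were IGFBP2 to IGFBP7, IGF1R (-0.46) and IGF2R (-0.47). IGFBP3, the main carrier in serum, was at 11.16 to 14.19 (median 13.21) against 16.64 to 17.76 (median 17.38).

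Interferon and NF-kB genes fell as groups, but in most of them the sides overlapped. All 30 interferon-stimulated genes fell (median -2.48), and 2 of the 30 had sides that did not overlap (6.67%, against 25.4% of all genes). The mean of the list per library was 8.23 to 9.61 in wild-type replicates 1, 2, 4 and 5, but 12.11 in wild-type replicate 3, inside the range of the empty vector (12.09 to 13.05) and of delta 22 (10.86 to 12.23). The mut9 libraries had 9.10 to 10.39. ISG20, an RNA exonuclease, and IRF1, a transcription factor of the pathway, were the pair that did separate, with 8.91 to 10.91 (median 9.82) against 11.75 to 12.91 (median 12.35) for IRF1. The antiviral enzyme OAS2 ran from 4.93 to 11.17 (median 6.31) on the rescued side against 9.08 to 12.96 (median 11.53). Without wild-type replicate 3, all 30 were still called lower (median -2.67). All 20 NF-kB and chemokine genes fell (median -3.21, and -3.35 without that library), with 4 not overlapping (20.0%, against 25.4% of all genes). The chemokine CXCL8 fell by 3.80, the kinase IRAK2 by 3.44, PTGS2 by 3.22 and IL1B by 3.46. The mean of that list in wild-type replicate 3 was 11.03, inside the delta 22 range (9.94 to 12.47), whereas wild-type replicates 1, 2, 4 and 5 had 8.02 to 9.05. Of 17 immunoproteasome and MHC class I genes, 17 fell (median -1.48, and -1.62 without that library), with 4 not overlapping (23.5%, near the share of all genes). Their mean was 11.93 in wild-type replicate 3, inside the delta 22 range (11.85 to 12.64), and at most 10.53 in those other 4. TAP1, the peptide transporter, fell by 2.34 and PSMB10 by 1.83. HLA-C fell by 2.09, but genes of the MHC class I family are near-identical and can share reads. In the interferon, NF-kB and MHC class I lists, replicate 3 also had the highest mean within mut9 and within the empty vector, but not within delta 22. In mut9 replicate 3 the NF-kB mean was 10.17, inside the delta 22 range as well. What set wild-type replicate 3 apart, and whether batch 3 had a part in it, was not tested.

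**Figure D2:**
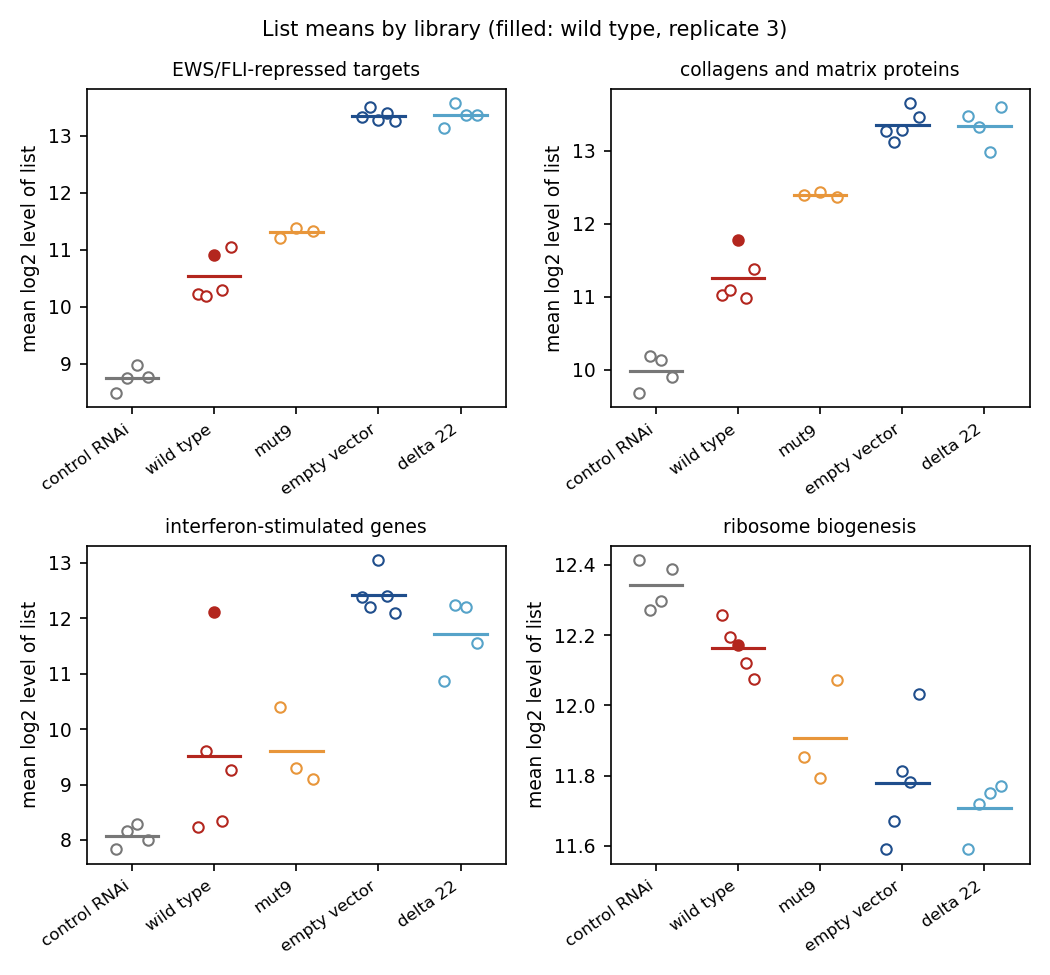
Mean log2 level of 4 gene lists in each library, by construct; each point is 1 library, filled for wild-type replicate 3, and bars mark construct means. In interferon-stimulated genes wild-type replicate 3 lies at 12.11, among the unrescued libraries, while in repressed targets and collagens all rescued libraries lie below all unrescued ones.

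Small differences that held in every library were the other feature of the contrast. A small consistent effect was taken as a called difference under 0.5 on the log2 scale (1.41-fold) with no overlap between the 8 and 9 libraries. There were 813 such genes (4.51%), 473 higher (2.62%) and 340 lower (1.88%). Both directions rest on how libraries are scaled. Quantile scaling raised the median difference of all genes from 0.0041 to 0.095. It gave 971 such genes, with 314 of the 813 among them, and trimmed mean scaling gave 704, with 338 shared. None of the 813 was called in the opposite direction under either scaling. All 473 higher ones and 312 of the 340 lower ones were called the same way under all 3, and 260 met the whole definition each time, 188 higher and 72 lower.

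TCF20, a nuclear coactivator, was at 12.75 to 13.06 (median 12.95) in rescued and 12.29 to 12.56 (median 12.45) in unrescued libraries. PPP5C, a phosphatase bound to HSP90, was at 12.84 to 12.99 (median 12.96) against 12.36 to 12.65 (median 12.53), and ZCRB1, a protein of the minor spliceosome, at 11.87 to 12.15 (median 12.00) against 11.42 to 11.72 (median 11.62). The lowest rescued library was above the highest unrescued one by 0.19, 0.19 and 0.15. The differences were 0.50 ± 0.05 (adjusted p = 3.84e-07), 0.39 ± 0.04 (1.14e-06) and 0.44 ± 0.05 (1.28e-06). The other higher genes of lowest adjusted p were the Integrator subunit INTS9 (0.49), the Wnt coactivator PYGO2 (0.50), the splicing factor CDC40 (0.50), BRAT1 (0.43), which takes part in the DNA damage response, and the nuclear receptor coactivator NCOA2 (0.46). None of the 8 was called between wild type and mut9 or between delta 22 and the empty vector. A choice by adjusted p of the pooled fit favours genes without such differences, so this is not a separate result. Under quantile and trimmed mean scaling all 8 stayed called and apart, with differences from 0.49 (PPP5C, trimmed mean) to 0.65 (TCF20, quantile).

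Lower by a small and steady amount were genes of several compartments. YAP1, the transcriptional coactivator of the Hippo pathway, was at 13.08 to 13.38 (median 13.16) in rescued and 13.52 to 13.83 (median 13.64) in unrescued libraries. MED13L, of the Mediator kinase module, was at 12.73 to 13.10 (median 12.93) against 13.28 to 13.54 (median 13.40), and ARFIP1, a binding partner of ARF and Rac GTPases, at 11.08 to 11.37 (median 11.18) against 11.54 to 11.70 (median 11.60). The gap between the closest libraries was 0.14, 0.18 and 0.17. The differences were -0.46 ± 0.04 (adjusted p = 3.92e-07), -0.50 ± 0.04 (3.19e-07) and -0.43 ± 0.04 (4.73e-07). TOR1A, an ATPase of the endoplasmic reticulum (-0.45), the kinase OXSR1 (-0.48), the ESCRT-I subunit VPS37A (-0.42), MMADHC of cobalamin metabolism (-0.42) and the heparan sulfate polymerase EXT1 (-0.40) completed the set. All 8 stayed called under both other scalings, but smaller: quantile scaling gave -0.30 for YAP1 and -0.26 for EXT1. With it the sides overlapped in YAP1, MED13L and EXT1, and trimmed mean scaling left an overlap in EXT1.

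**Figure D3:**
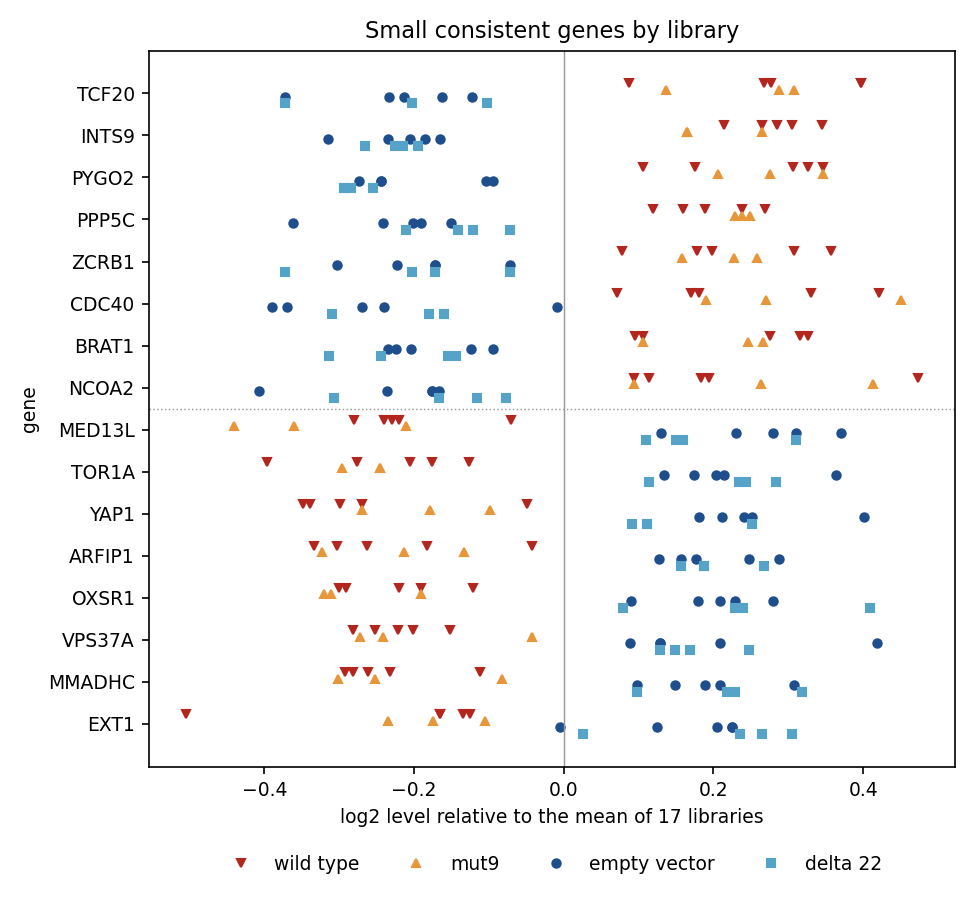
Log2 level of 16 small consistent genes in each of the 17 libraries, relative to the gene's mean over them; symbols show the construct, with rescued libraries in warm and unrescued ones in cool colours. In the upper 8 genes all rescued libraries lie above all unrescued ones and in the lower 8 below; the closest pair of libraries is 0.19 apart in TCF20 and 0.14 in YAP1.

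The windows around a start of ZCRB1, ARFIP1 and YAP1 are shown because the short ETS site and the GGAA pair were counted in such windows and these 3 hold one of them. Capitals mark CCGGAAGT, or ACTTCCGG where it lies on the other strand, in ZCRB1 and ARFIP1, and GGAAGGAA in YAP1. Build, source and window are as for LOXHD1.
ZCRB1, chr12:42326045-42326344, reverse strand: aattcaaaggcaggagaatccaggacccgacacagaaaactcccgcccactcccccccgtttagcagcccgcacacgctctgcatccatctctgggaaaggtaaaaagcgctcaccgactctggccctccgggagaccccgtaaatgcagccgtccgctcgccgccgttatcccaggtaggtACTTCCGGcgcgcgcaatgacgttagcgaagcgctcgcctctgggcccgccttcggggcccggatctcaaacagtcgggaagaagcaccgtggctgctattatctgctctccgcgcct
ARFIP1, chr4:152779704-152780003, forward strand: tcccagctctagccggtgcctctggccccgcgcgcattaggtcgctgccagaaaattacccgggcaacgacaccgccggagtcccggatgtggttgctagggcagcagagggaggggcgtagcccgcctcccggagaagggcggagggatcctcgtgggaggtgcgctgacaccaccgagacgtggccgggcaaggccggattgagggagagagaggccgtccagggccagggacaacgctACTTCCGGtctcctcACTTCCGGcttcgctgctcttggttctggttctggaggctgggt
YAP1, chr11:102110197-102110496, forward strand: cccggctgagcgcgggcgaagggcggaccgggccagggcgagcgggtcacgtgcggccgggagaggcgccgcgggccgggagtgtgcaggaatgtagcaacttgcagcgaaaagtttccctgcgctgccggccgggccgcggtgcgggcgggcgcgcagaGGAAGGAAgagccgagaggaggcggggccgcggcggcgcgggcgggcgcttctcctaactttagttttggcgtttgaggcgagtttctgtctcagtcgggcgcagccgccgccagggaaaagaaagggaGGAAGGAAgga
CCGGAAGT, searched on both strands, was in 4.14% of 35116 RefSeq promoter windows and in 6.59% of the 16825 windows of protein-coding genes tested. It was in 72 of 547 windows of small consistent higher genes (13.2%) and in 42 of 385 of lower ones (10.9%). Windows of genes not called held it in 8.34%, those of called genes under 2-fold in 8.98% (higher) and 6.68% (lower). GGAAGGAA was in 2.93% and 3.12% of windows of small consistent genes, against 3.62% of tested windows. Both motifs contain GGAA and can overlap. Windows matched 80.3% of protein-coding genes tested, but under 80% of those changed at least 2-fold, for which the count is void. The shares for tested windows include the windows of those genes. Of the 813 small consistent genes, 804 had a mean of at least 100 on the linear scale, against 12203 of all 18040 tested. The motif shares were not matched for level. These shares are descriptions of letters in short windows, with several windows for 3363 genes.

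Genes of DNA synthesis and repair rose by small amounts. Of 35 DNA replication genes, 31 rose and none fell, with a median of 0.41 and no member at 2-fold. The sides did not overlap in 9 of the 35 (25.7%, near the 25.4% of all genes). That share was 32.3% in the DNA repair list and 42.9% in nucleotide synthesis. The polymerase subunit POLE was at 12.73 to 13.27 (median 12.95) against 11.95 to 12.44 (median 12.24), POLA1 was 0.57 higher and the clamp loader subunit RFC2 0.44. Of 31 DNA repair and Fanconi anaemia genes, 22 rose and 3 fell: the checkpoint kinase CHEK2 rose by 0.76, the recombination factor XRCC2 by 0.78 and the helicase BLM by 0.67. NBN (-0.53), RAD51D (-0.47) and BARD1 (-0.17) fell, BARD1 only as deposited. Of 30 mitosis genes, 8 were higher and 5 lower, with a median of -0.027. Quantile scaling gave 14 higher and 1 lower, and trimmed mean scaling 11 and 1. BUB1B (0.38) and MAD2L1 (0.32) of the spindle checkpoint were higher and the ubiquitin conjugase UBE2C (-0.42) lower. Of nucleotide synthesis genes, 15 of 21 rose and 2 fell, with the pyrimidine enzyme CAD at 13.13 to 13.63 (median 13.50) against 12.08 to 12.45 (median 12.37) and the purine enzymes IMPDH1 (0.83) and PFAS (0.97) higher.

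The lists of ribosome biogenesis, oxidative phosphorylation, mitochondrial ribosomal proteins, mitochondrial import and the spliceosome rose in larger shares than all genes. Their shares ran from 20 of 40 to 27 of 43 (62.8%), against 30.8% of all genes. Of 43 ribosome biogenesis genes, 27 rose and none fell (median 0.26), led by UTP20 (0.86), WDR12 (0.67) and PPAN (0.67). Of 57 oxidative phosphorylation subunits, 32 rose and 2 fell (median 0.20). Of these, 10 met the small consistent definition, and 7 did so under all 3 scalings. Over all genes tested, 2.62% met it as higher genes, and 188 of 18040 did so under all 3. COX7C of complex IV was at 11.96 to 12.45 (median 12.21) against 11.22 to 11.71 (median 11.46), NDUFC1 of complex I was 0.97 higher and UQCRC2 of complex III 0.49. NDUFS8 (-0.31) and SDHA (-0.30) were lower. Mitochondrial ribosomal proteins rose in 20 of 40 cases and fell in 1, mitochondrial import genes rose in 13 of 24 and fell in 2, and spliceosome genes rose in 23 of 39 and fell in 1. The U1 component SNRNP70 was 0.38 higher. With batches 3 to 5 only (11 libraries), the rises numbered 14 in ribosome biogenesis, 24 in oxidative phosphorylation, 9 in mitochondrial ribosomal proteins, 8 in mitochondrial import and 12 in the spliceosome. In that setting 4126 of 18040 genes were called higher, so 9 of 40 mitochondrial ribosomal proteins was near the share of all genes. Cytosolic ribosomal proteins rose in 13 of 40 cases (32.5%, near the 30.8% of all genes) and fell in 1. That count was 36 with quantile scaling, 26 with trimmed mean scaling and 4 with batches 3 to 5 only, and these genes have near-identical copies that can share reads.

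Chromatin complexes and lipid synthesis also leaned upward. Of 43 genes of the BAF, Polycomb and NuRD complexes, 22 rose and 4 fell. CHD3, a NuRD helicase, was at 13.61 to 14.05 (median 13.82) against 12.06 to 12.74 (median 12.49), and the BAF core subunit SMARCC1 at 13.72 to 14.17 (median 13.91) against 12.30 to 12.69 (median 12.56). The closest libraries of the sides were 0.87 and 1.03 apart. The Polycomb reader CBX8 rose by 1.14 and ARID2 by 0.76. The 4 lower members were PHC2 (-0.69), MBD2 (-0.52), RBBP7 (-0.29) and SMARCA2 (-0.23, not called under the other scalings). Of 29 sterol and fatty acid synthesis genes, 19 rose and 3 fell, but the sides did not overlap in only 2 (6.90%, against 25.4% of all genes). The mean of the list was 11.46 to 12.10 with wild type, overlapping the empty vector (11.24 to 12.07) and delta 22 (11.35 to 11.75). With mut9 it was 11.79 to 12.31, and 6 members were called lower with wild type than with mut9. That count ran from 1 to 8 with 1 library left out. HSD17B7, of cholesterol synthesis, rose by 0.99, whereas INSIG1, a brake on the pathway, fell by 1.11. Among splicing regulators, MBNL2 was at 10.67 to 11.25 (median 10.93) against 12.05 to 12.46 (median 12.23) and fell by 1.31, as did MBNL1 (-0.85) and RBFOX2 (-0.31), while 17 of 35 members rose.

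COPI, COPII and Golgi trafficking genes and lysosome genes fell more often than the 32.6% of all genes. Of 36 COPI, COPII and Golgi trafficking genes, 26 fell and 1 rose (median -0.34). The small consistent definition was met by 7, all lower, against 1.88% of all genes in that direction. The coat subunit SEC24A was at 10.97 to 11.36 (median 11.21) against 11.58 to 12.11 (median 11.86), and COPA, a COPI subunit, at 13.78 to 14.08 (median 14.00) against 14.31 to 14.48 (median 14.42). ARF4 fell by 0.69 and SEC31A by 0.67, while COPZ1 (0.12) was the member that rose. With quantile scaling 20 fell and 5 rose, and with trimmed mean scaling 23 fell and 4 rose. Of 38 lysosome and V-ATPase genes, 20 fell and 6 rose. The protease cathepsin B (CTSB) fell by 1.63, the cholesterol transporter NPC1 by 0.93 and cathepsin Z (CTSZ) by 1.70. In the endoplasmic reticulum list 10 of 32 fell and 1 rose (median -0.18). Its median was 0.0015 with quantile scaling, where 6 fell and 5 rose, so no direction is given for that list, whose share of falls (31.2%) was near that of all genes. SEC61A1 (-0.62) and SEC61G (-0.50) of the translocon fell. Glycolysis genes were mixed, with 4 higher and 9 lower of 21 as deposited and 9 and 7 with quantile scaling. The regulator PFKFB4 fell by 1.94 and PFKM rose by 0.75. PKM was at -0.83, but at -0.29 with quantile scaling, where the sides overlapped.

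**Figure D4:**
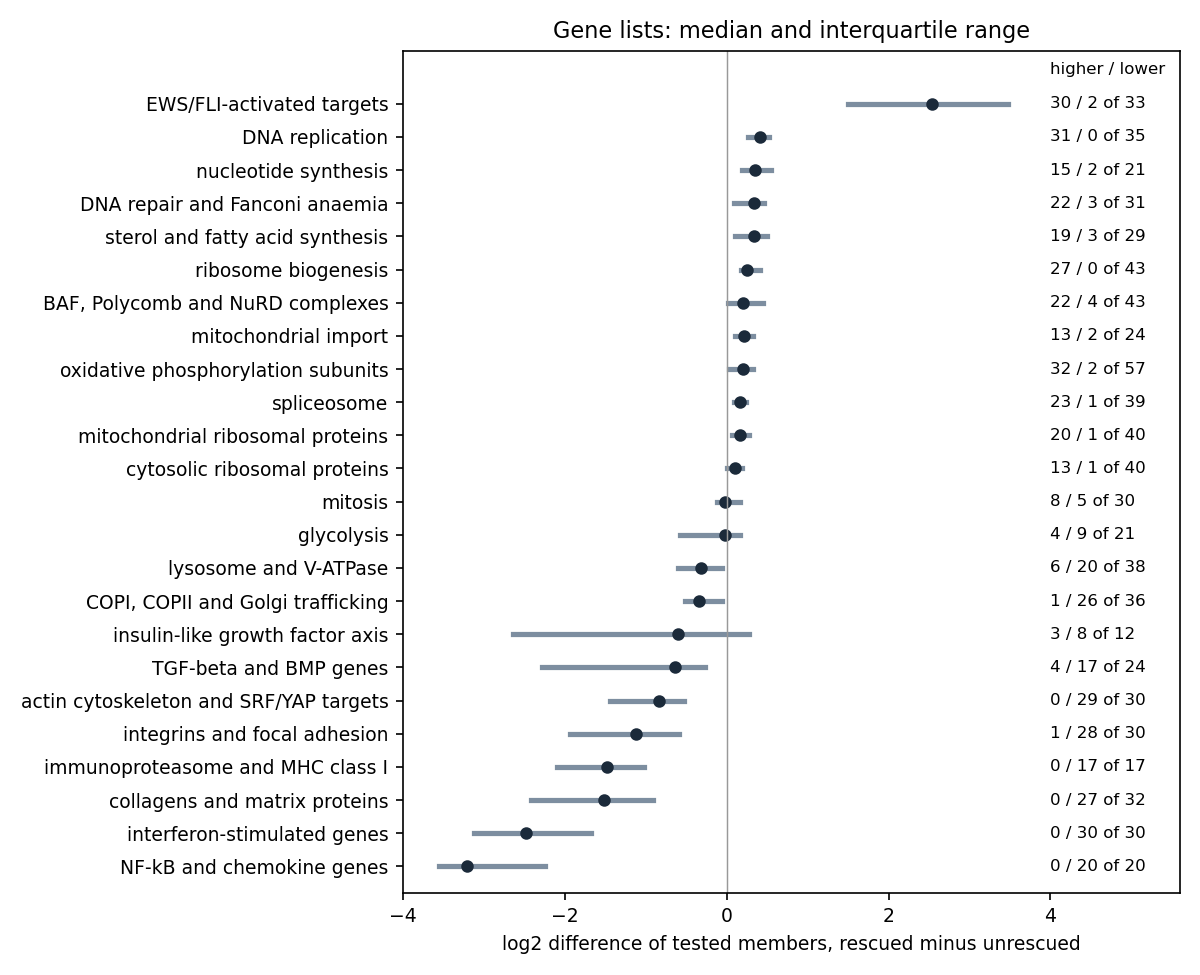
Median log2 difference (points) and interquartile range (lines) of tested members for 24 gene lists, rescued minus unrescued, with the counts of members called higher and lower at the right. Matrix, adhesion, interferon and NF-kB lists lie far below 0, and DNA replication (31 higher, 0 lower of 35) and other growth-related lists lie slightly above it.

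Within the rescued side, 3584 genes differed between wild type and mut9 (19.9%), 1444 higher with wild type (8.0%) and 2140 lower (11.9%). Without mut9 replicate 3, which leaves 2 mut9 libraries, 1417 were called, and 1950 without replicate 5 and 2224 without replicate 4. The split depends on scaling: 40.3% of calls were higher with wild type as deposited, 54.2% with quantile scaling and 64.1% with trimmed means. CFI, complement factor I, was at 7.17, 7.03, 8.82, 7.50 and 7.26 with wild type and 11.49, 11.04 and 10.91 with mut9, a difference of -3.33 ± 0.46 (adjusted p = 6.93e-04). With mut9 it was as high as in the highest unrescued libraries (8.79 to 11.26 (median 9.90)), and the pooled difference was not called (adjusted p = 0.12). THBS1 was at 8.15, 7.76, 8.24, 7.83 and 8.67 with wild type and at 11.09, 10.63 and 11.23 with mut9, so that mut9 lay between wild type and the unrescued libraries (-3.21 ± 0.36, adjusted p = 2.38e-04). PDGFRA, a receptor for platelet-derived growth factor, was placed likewise (-2.69 ± 0.34 within the side, -4.23 between sides).

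CALCB, which encodes a calcitonin gene-related peptide, had the reverse pattern. Its level was 10.22, 11.40, 10.44, 10.42 and 10.25 with wild type and 6.98, 6.83 and 6.77 with mut9, against 4.85 to 6.84 (median 5.71) in unrescued cells (3.84 ± 0.32 within the side, adjusted p = 5.11e-05). The mut9 libraries thus lay at or just beyond the top end of the unrescued range. The Wnt modulator DACT2 (2.29 ± 0.35), the muscle protein gene NEB (1.89 ± 0.25) and the pseudogene FRG2FP (2.82 ± 0.40), which can share reads with its family, were also higher with wild type. The fibrinogen-like FGL2 (-3.18 ± 0.42), the actin-associated AFAP1L2 (-2.93 ± 0.34), the calcification inhibitor MGP (-2.85 ± 0.39) and the superoxide dismutase SOD3 (-2.79 ± 0.30) were lower.

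Matrix genes had the largest share of calls between wild type and mut9 among the lists with 10 or more tested members. Of 32 collagens and matrix proteins, 22 were lower with wild type than with mut9 and none higher (median -0.87), from 13 without mut9 replicate 3 to 24 without wild-type replicate 3. The mean of the list was 10.98 to 11.78 with wild type, 12.37 to 12.43 with mut9 and 13.12 to 13.65 with the empty vector. Ribosome biogenesis genes were higher with wild type in 23 of 43 cases and lower in none (median 0.33). Without mut9 replicate 3 that count was 5 and without mut9 replicate 4 it was 8, although 27 and 29 were called under the other scalings. Of endoplasmic reticulum genes, 17 of 32 were lower with wild type, 3 without mut9 replicate 3 and 5 without mut9 replicate 5. The chaperones HSP90B1 (-1.01), HSPA5 (-0.99) and PDIA4 (-0.99) were among the 17. Lysosome genes were lower in 16 of 38 cases and 9 without mut9 replicate 3. Of the 12 members of the insulin-like growth factor axis, 6 were lower with wild type, among them IGFBP7 (-2.66) and IGFBP3 (-1.48). With 1 library left out, 4 to 8 were. Over all genes tested, 8.0% were higher and 11.9% lower with wild type than with mut9. These list counts and the side counts above share the wild-type and mut9 libraries.

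Within the unrescued side, 941 genes differed between delta 22 and the empty vector (5.22%), 453 higher with delta 22 (2.51%) and 488 lower (2.71%). This count fell to 607 with no replicate block. It was 241, 491 and 277 without delta 22 replicate 1, 2 or 4 and 354 and 398 without empty vector replicate 1 or 4. With batches 3 and 4 alone (2 libraries of each construct), limma called 0 genes, with 2325 at an unadjusted p below 0.05. IGFBP5, a binding protein of insulin-like growth factors, was at 17.56, 17.30, 16.97 and 17.45 with delta 22 and 15.50, 15.06, 14.80, 15.31 and 14.53 with the empty vector (2.24 ± 0.28, adjusted p = 0.00215). The constructs did not overlap. The chaperone CRYAB (1.75 ± 0.28), the prohormone convertase PCSK1 (1.73 ± 0.13), the guidance factor SEMA3D (1.52 ± 0.13), the protease ADAMTS15 (1.43 ± 0.23), the mineralocorticoid receptor NR3C2 (1.42 ± 0.22) and HOXB8 (1.40 ± 0.20) were also higher with delta 22. SPX, a secreted peptide gene, was at 4.61, 7.38, 6.91 and 5.46 with delta 22 against 8.64, 9.78, 8.80, 9.43 and 10.23 with the empty vector (-3.27 ± 0.47, adjusted p = 0.00425). Its delta 22 level was inside the range of the rescued libraries (5.35 to 7.96 (median 5.88)) in 3 of 4 libraries and below it in 1. The carbonic anhydrase CA12 (-2.05 ± 0.24), the NF-kB regulator BIRC3 (-2.01 ± 0.51), the receptor CD40 (-1.91 ± 0.23), HKDC1 (-1.84 ± 0.33) and the granin CHGB (-1.77 ± 0.27) were lower with delta 22.

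The list with most calls inside this side was that of ATF4 targets and serine synthesis, with 11 of 20 lower with delta 22 and none higher (median -0.57). Over all genes tested, 2.71% were lower and 2.51% higher with delta 22. The serine synthesis enzymes PSAT1 (-0.76) and PHGDH (-0.56), the asparagine synthetase ASNS (-1.47), TRIB3 (-1.74) and SESN2 (-1.47) were among the 11 of the list. The count for the list was 8 with no replicate block, 11 and 13 under the other scalings, and 6 without delta 22 replicate 1. Between the sides the list was mixed: 10 fell, with ATF3 at -1.85 and DDIT4 at -1.76, and 3 rose, PHGDH (0.53), PSAT1 (0.46) and SLC7A5 (0.26). Oxidative phosphorylation subunits were higher with delta 22 in 8 of 57 cases, but in none without delta 22 replicate 1 or 4 or empty vector replicate 1 or 4 (limma), when 10 to 16 of the 57 were higher at an unadjusted p below 0.05.

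**Figure D5:**
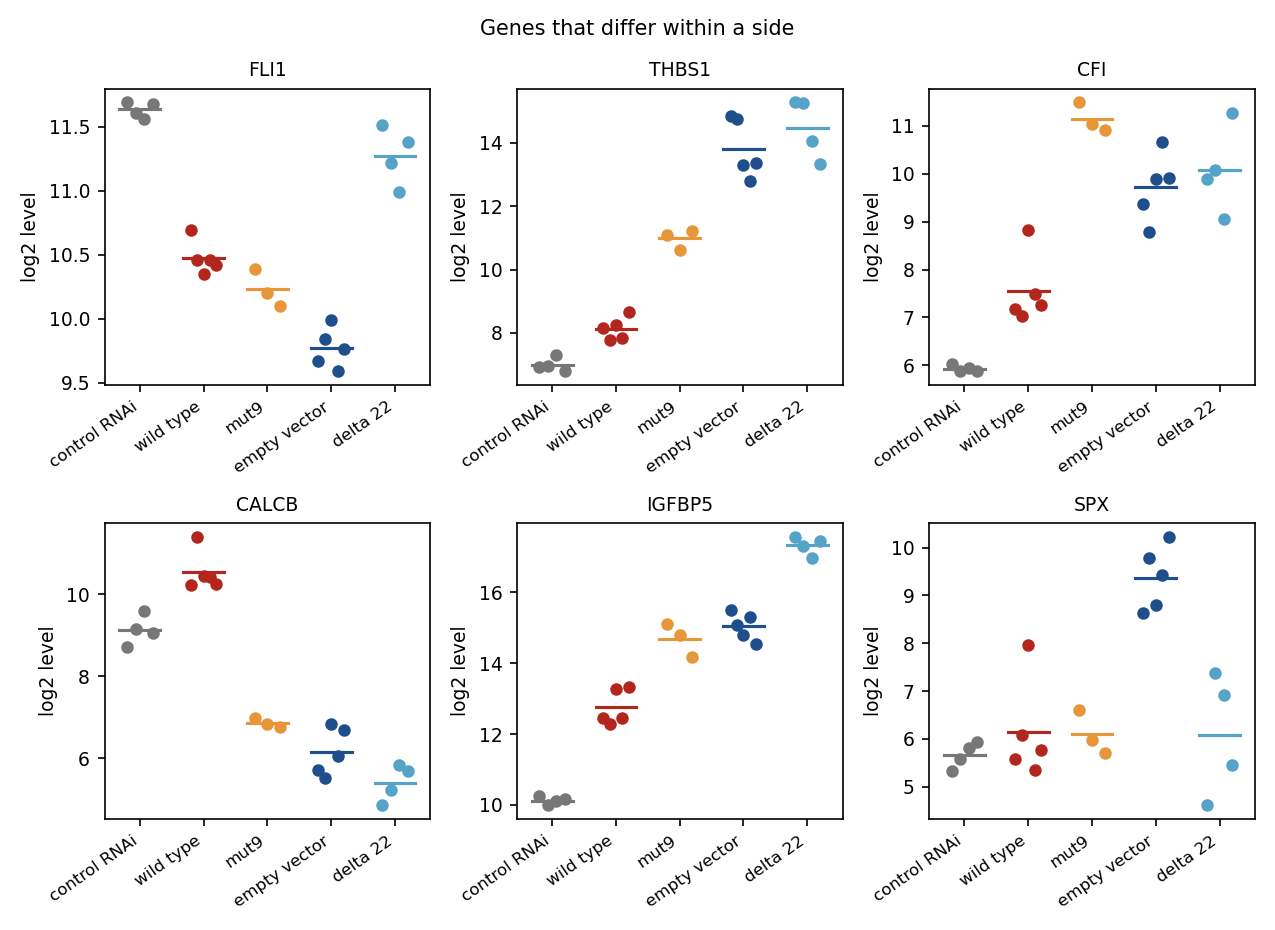
Log2 level of 6 genes in each library by construct, with control RNAi for reference; each point is 1 library and bars mark construct means. FLI1 and IGFBP5 are highest among knockdown cells with delta 22, CFI is as high with mut9 as in unrescued cells, and CALCB is high with wild type but not with mut9.

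The 2 rescues can be compared with unrescued cells through pairs of contrasts that share no library. Wild type minus empty vector called 10115 of 18040 genes and mut9 minus delta 22 called 5569 of 18040. Of these, 4761 were called in both in the same direction, which is 47.1% of the first and 85.5% of the second, and 54 in opposite directions. In the other pairing, wild type minus delta 22 called 10084 and mut9 minus empty vector 9434. There, 6754 were called in the same direction (67.0% and 71.6%) and 256 in opposite directions. With this many of the 18040 genes called in each contrast, many would be in both lists from the call rates alone. The overlap to be had from those rates was not computed. Batches are shared by these contrasts, and mut9 minus delta 22 has 1 residual degree of freedom.

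Markers of other cell types were checked in all 21 libraries. Of 12 immune cell markers, 5 were tested. Among the others, CD3D, CD3E, MS4A1, LYZ, NKG7 and TYROBP reached 10 on the linear scale in no library. PTPRC was at most 4.30 and no tested immune marker had a median of 100 on the linear scale over the 21 libraries. ITGAM reached the highest level, at 6.48 to 8.95 (median 7.69) in rescued and 3.94 to 8.25 (median 5.51) in unrescued libraries. It was called higher (1.71), while 3 tested immune markers were called lower and 1 was not called. Among 8 tested endothelial markers 6 fell and 1 rose: TIE1 was at 3.42 to 5.16 (median 3.85) against 6.86 to 8.28 (median 7.62), and EGFL7 was 1.42 higher. EGFL7 (median 9.14) and the receptor KDR (5.12 to 11.20, median 8.64) were the 2 endothelial markers with a median above 100 on the linear scale. The epithelial keratins KRT18 (12.51 to 13.65, median 13.12) and KRT8 (8.48 to 10.41, median 9.54) were also above it, while EPCAM was below the level for testing throughout. The skeletal muscle factors MYOD1, MYOG and MYF5 were below the level for testing throughout. Of 12 Ewing sarcoma markers, 11 were tested and all 11 rose, with the kinase PRKCB at 13.87 to 14.68 (median 14.39) against 9.17 to 11.50 (median 10.58). CD99 was listed at 0 in every library and was not tested. Whether that reflects absent RNA or how reads were counted cannot be told from these values.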

How the data were processed

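Gene-level RNA-seq values of 21 libraries of A673 cells were used as deposited. Per the submitters' processing notes, bcl2fastq, STAR 2.5.2b, HTSeq and DESeq2 were used with build hg19; their order, settings and strandedness are not given in the sources used here. The authors deposited 1 table of normalized log2 values (-4.1 to 20.2, 0 for the 17358 genes without signal). It keeps no counts or library totals, so depth is unknown and no count test was run. All 21 columns of values have a sample, and columns without one number 0. Symbols for 52338 of 57820 gene IDs came from a gene name table and GENCODE release 29.

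The members and the gene lists were chosen with earlier results of these data known. Libraries were grouped by construct label. Differences were tested with limma 3.58.1 in R 4.3.3 (linear model, trended empirical Bayes, 2-sided), tested on simulated data. The sides were fitted as 2 means, and the constructs within a side as 1 mean each over the 17 libraries, with the replicate number as a block. The labels call that number a batch. Deviations from construct means correlated at a mean of 0.23 over 21 same-number pairs of libraries of different constructs (14 above 0.1) and -0.056 over 86 other pairs. No 2 libraries were identical (highest correlation 0.9978, 0 tested genes with equal values in all). FLI1 and EWSR1 also had an exact permutation test within batches.

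Named genes are FLI1 and EWSR1, the 8 largest rises and falls with sides not overlapping, the 8 small consistent genes per direction with lowest adjusted p, the 5 largest within-side differences per direction, also among genes called between sides, and 2 to 4 members per list with lowest adjusted p, all with means of at least 100 on the linear scale except list members. Exceptions to a list's direction and within-side list members were picked after their values were seen. Counts of genes with near-identical copies or antisense partners are uncertain. Alternatives were other scalings, filters, weights, library sets and blocks. Scalings required together, and list counts under other scalings or without libraries, were added after seeing the data. Some genes that this rule names are not reported here. No set test was run.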

Additional observations from a re-analysis of the deposited data

Results flagged for a closer look

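In 203 genes and 42 gene lists, the wild-type, empty vector and delta 22 libraries were checked for a single value far from the rest of its construct (Dixon's critical value). This marked 24 of 609 gene groups and 3 of 126 list groups, and chance marks about 1 in 20 groups. Values are log2 levels, each with the range of the other libraries of its construct. The library of wild type replicate 3 had CFI at 8.82 (7.03 to 7.50), IRF1 at 10.91 (8.91 to 9.43), NDUFC1 at 10.63 (10.96 to 11.07) and SPX at 7.96 (5.35 to 6.09). The same library had TAP1 at 12.66 (9.60 to 10.45), WARS1 at 14.41 (13.18 to 13.40) and YAP1 at 13.38 (13.08 to 13.16). The library of delta 22 replicate 1 had ANKRD1 at 11.77 (12.93 to 13.09), CD40 at 5.23 (6.66 to 6.91), CDC40 at 10.78 (10.91 to 10.93) and KRT8 at 8.48 (others 9.33 or higher). The same library had LOX at 13.08 (13.55 to 13.64) and the mean of translation initiation and elongation factors at 12.88 (12.94 to 12.95). The library of wild type replicate 1 had ARF4 at 12.34 (11.98 to 12.02), EXT1 at 12.59 (12.93 to 12.97), FGL2 at 4.56 (5.42 to 5.77) and POSTN at 12.38 (10.02 to 10.42). Wild type replicate 2 had CALCB at 11.40 (10.22 to 10.44) and NCOA2 at 12.12 (11.74 to 11.84). Empty vector replicate 2 had RBFOX2 at 13.54 (13.62 to 13.64) and YWHAZ at 15.79 (15.35 to 15.47). Delta 22 replicate 3 had YAP1 at 13.68 (13.52 to 13.54) and the mean of hnRNP and SR splicing regulators at 13.10 (13.26 to 13.27). Empty vector replicate 1 had CD40 at 7.14 (8.30 to 8.75). Empty vector replicate 5 had NCOA2 at 11.24 (11.41 to 11.48). Wild type replicate 5 had NR3C2 at 10.68 (9.16 to 9.51). Delta 22 replicate 4 had the mean of endothelial markers at 6.05 (6.53 to 6.54). The interferon-regulated genes IRF1 and TAP1 are among those of wild-type replicate 3, the library that also stood apart in the mean of interferon-stimulated genes. Their part in the side difference was not tested beyond the counts without that library.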

How the results depend on the processing

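The count of genes called between the sides (11442) stayed within 1.5 times under every alternative run: 7815 with batches 3 and 4 only, 8872 with batches 3 to 5, 11378 with no replicate block, and 10349 to 11506 with 1 library left out. The share of calls higher on the rescued side was 48.5% as deposited, 58.3% with quantile and 58.9% with trimmed mean scaling. The median difference of all genes was 0.0041 as deposited, 0.095 with quantile and 0.108 with trimmed mean scaling. Small consistent genes (813) numbered 840 to 976 with 1 library left out and 830 with no replicate block. They numbered 1974 with batches 3 and 4 only, 1487 with batches 3 to 5, 1480 without mut9 and 1277 without delta 22, where fewer libraries have to stay apart. The count was 143 under 0.3, 2184 under 1, and 4046 when the same sign in each batch replaced non-overlap. Genes called between wild type and mut9 (3584) numbered 359 with batches 3 and 4, 2357 with batches 3 to 5, 3160 with no replicate block and 1417 to 3864 with 1 library left out. Genes called between delta 22 and the empty vector (941) numbered 607 with no replicate block, 467 with no filter on low values, 0 with batches 3 and 4 (2325 at an unadjusted p below 0.05, limma), 3 with batches 3 to 5, 3129 with array weights and 241 to 1145 with 1 library left out. The cause of the latter moves was not tested. For the named genes, 6090 values under alternatives kept their direction and side of the threshold, 63 lost the call, 1 gained it and 0 reversed. Quantile scaling moved small side differences of named list members by over 1.5 times: RBFOX2 to -0.16, COPA to -0.28, NDUFS8 to -0.20, SDHA to -0.16, RBBP7 to -0.16, ID3 to -0.23, COPZ1 to 0.26 and SLC7A5 to 0.41, each still called. The exact p without regard to batch was 0.849 for FLI1 and 0.00206 for EWSR1. Depth is unknown, so differences in low genes have no counting interval.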

Other observations

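In the lists not described above, calls ran in both directions on the deposited values, and which direction prevailed rests on scaling in several. Of 16 tRNA synthetases, 6 rose and 6 fell (median 0.001), and 8 and 2 with quantile scaling. WARS1, the tryptophan enzyme, was at 13.18 to 14.41 (median 13.67) in rescued and 15.07 to 15.84 (median 15.48) in unrescued libraries, a fall of 1.77 (limma adjusted p = 2.65e-07), whereas FARSA (0.38), VARS1 (0.47) and LARS1 (0.35; 0.55 with quantile scaling) were small consistent rises. Of 36 translation initiation and elongation factors, 10 rose and 7 fell, and 20 and 2 with quantile scaling. EIF6, which keeps ribosomal subunits apart, fell by 0.66, and EIF2B5, of the exchange factor for eIF2, rose by 0.44. Of 19 citric acid cycle genes, 7 rose and 3 fell (12 and 1 with quantile scaling): MDH2 (0.32) and IDH3B (0.31) were small consistent rises and SUCLG2 fell by 0.85. Proteasome genes were called in 10 of 30 cases, 6 higher and 4 lower, but 17 and 1 with quantile and 11 and 1 with trimmed mean scaling. PSMB5 rose by 0.33, and PSMC5 was at -0.32 (-0.20 with quantile scaling). Among RNA polymerase II, Mediator and general factors, 17 of 42 rose and 8 fell (24 and 4 with either other scaling), with POLR2D at 0.40 and MED15 at -0.55. Of 24 chaperonin, HSP90 and heat shock genes, 9 rose, among them CCT7 (0.44), and 3 fell, among them DNAJB1 (-0.75). With quantile scaling 18 rose and 2 fell.

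Of 35 cilium and intraflagellar transport genes, 12 rose and 7 fell (19 and 4 with either other scaling). BBS4, of the BBSome, rose by 0.65 and KIFAP3, a subunit of the kinesin-2 motor, fell by 0.75. Among 20 tubulin and neuronal genes, 9 rose and 6 fell. SYT1, the calcium sensor of synaptic vesicles, was at 13.01 to 13.69 (median 13.35) against 11.98 to 12.27 (median 12.13), and MAPT, which encodes tau, rose by 2.03. The sides overlapped in neither. TUBB3 fell by 0.92 and DPYSL3 by 1.10. Of 26 genes often used as references, 5 rose and 11 fell, against 13 and 6 with quantile scaling, and 5 and 6 were called so under all 3. YWHAZ was at 14.45 to 14.73 (median 14.63) against 15.35 to 15.94 (median 15.60), a fall of 0.97, and HPRT1 rose by 0.41. Of 12 epithelial markers, 7 were tested, 1 of which rose and 3 fell. The tight junction gene CLDN4 was at 4.35 to 5.35 (median 4.78) against 6.90 to 8.69 (median 8.01). Both tested skeletal muscle markers were called, with DES lower (-1.70) and MYH3 higher (0.41).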
